A study of Mus musculus with 19 samples.

Results

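The FOS and JUN gene family was followed in the dorsal hippocampus of male mice. Its members are Fos, Fosb, Fosl1 and Fosl2, which encode FOS proteins, and Jun, Junb and Jund, which encode JUN proteins. They were the rows of the count table whose Ensembl identifier, without its version, belongs to one of these symbols, 7 of 51789 rows. Of the 7 genes, 6 passed the filter on low counts in each comparison, and Jund did not.

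RNA sequencing was carried out on 19 libraries of total RNA depleted of ribosomal RNA, from male mice of the C57BL/6J strain aged 2 to 4 months; whether a library holds tissue of 1 mouse is not given in the sources used here. The DN transgene encodes a dominant-negative Nr4A, a nuclear receptor that blocks its own family, and tTA is the tetracycline-controlled transactivator that turns such transgenes on. In experiment 1 all libraries were from mice that were tTA+ and had undergone the exposure abbreviated SOR in the labels: 5 were tTA+/DN+ and 6 were tTA+/DN- littermate controls. In experiment 2 DN was absent throughout, and 4 control libraries with SOR were set against 4 homecage control libraries. The SOR group of experiment 2 held 1 tTA- library (replicate 1) and 3 tTA+ libraries. The homecage group held 2 tTA- libraries (replicates 1 and 2) and 2 tTA+ libraries (replicates 3 and 4). The promoter that drives tTA, and so the cells that could express DN, is not given in the sources used here, nor is the time between SOR and dissection. No homecage group was part of experiment 1, so the DN comparison concerns tissue after SOR only.

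FOS and JUN proteins are basic leucine zipper transcription factors that bind DNA as pairs, together called AP-1. FOS proteins pair with a JUN protein, whereas JUN proteins can also pair with each other. In hippocampal neurons Fos, Fosb and Junb are immediate early genes: their transcription rises within minutes of synaptic activity or growth factor signals through kinases, CREB and SRF, and their RNA is short-lived.

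The promoters of 4 members are shown, 3 whose levels separated SOR from homecage libraries (Fos, Fosb and Junb) and 1 whose levels did not (Jun), so that their sequences can be set beside the values. Each is the stretch of 250 bases that ends just before the RefSeq transcription start (GRCm38.p6), written 5′ to 3′ on the strand of the gene. Fos is at chr12:85473640-85473889 on the plus strand, Fosb at chr7:19310046-19310295 on the minus strand, Junb at chr8:84978749-84978998 on the minus strand and Jun at chr4:95052223-95052472 on the minus strand. Capitals mark matches to the motifs searched.
Fos: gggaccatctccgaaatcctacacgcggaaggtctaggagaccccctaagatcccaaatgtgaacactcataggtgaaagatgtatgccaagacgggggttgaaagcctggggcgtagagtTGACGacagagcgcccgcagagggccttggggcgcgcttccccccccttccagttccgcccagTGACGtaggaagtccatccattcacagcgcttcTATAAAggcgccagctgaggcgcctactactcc
Fosb: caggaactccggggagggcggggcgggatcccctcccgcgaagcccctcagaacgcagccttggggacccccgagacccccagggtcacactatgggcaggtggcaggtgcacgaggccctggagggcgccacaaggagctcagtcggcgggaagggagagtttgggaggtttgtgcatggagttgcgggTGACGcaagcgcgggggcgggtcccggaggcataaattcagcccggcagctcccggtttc
Junb: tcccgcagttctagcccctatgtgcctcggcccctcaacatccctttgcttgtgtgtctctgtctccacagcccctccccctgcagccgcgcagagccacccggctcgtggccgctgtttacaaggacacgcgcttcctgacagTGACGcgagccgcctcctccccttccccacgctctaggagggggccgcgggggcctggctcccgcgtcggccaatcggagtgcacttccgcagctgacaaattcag
Jun: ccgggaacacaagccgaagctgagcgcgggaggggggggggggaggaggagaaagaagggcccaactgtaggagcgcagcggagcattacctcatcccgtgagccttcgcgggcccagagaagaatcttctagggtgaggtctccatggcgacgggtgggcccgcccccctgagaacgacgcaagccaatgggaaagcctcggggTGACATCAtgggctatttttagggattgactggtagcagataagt

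The core of the cAMP response element, TGACG, which CREB binds and which is also part of the full element TGACGTCA, matched at 2 places in the Fos window, 129 to 125 and 66 to 62 bases before the start. It matched once in the Fosb window, 60 to 56 bases before the start. The Junb window held it 106 to 102 bases before the start, and the Jun window held no match. Of all 32817 RefSeq promoter windows of this length, 17.7% hold TGACG on either strand. The TATA box letters TATAAA matched in the Fos window only among these 4, 33 to 28 bases before the start, and occur in 12.4% of all windows. The Jun window held TGACATCA, a variant of the AP-1 site, 45 to 38 bases before the start (2.93% of all windows). Full cAMP response elements (TGACGTCA, 1.55% of windows), AP-1 sites (TGACTCA, 4.46%), the site AAAGGTCA that Nr4A receptors bind as monomers (1.34%) and the CArG box that SRF binds (1.47%) had no match in the 4 windows. Both strands were searched, and a missing match says only that these letters are not in these 250 bases. The windows of Fosl2 and Jund were searched too and held no match to any of these motifs. The genes shown were chosen by their levels, and the part of these sites in the levels was not tested.

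Libraries held 22258159 to 66991576 counts, and the smallest was replicate 3 of the SOR group in experiment 2. Markers of hippocampal neurons, summed over 8 genes, were at 2710 to 3420 CPM (counts scaled to the library total) in all 19 libraries. Markers of choroid plexus, an epithelium of the ventricles next to the hippocampus, summed over 8 genes to 21.5 to 4120 CPM, and no marker was at 0 in any library. The sum was above 200 CPM in 5 libraries: DN replicate 2, controls 1 and 2 of experiment 1, and SOR replicates 1 and 2 of experiment 2. Levels below are CPM scaled by the trimmed mean of M values (TMM) within each experiment. Both experiments held tTA+ control libraries after SOR, but in separate groups with no library in common. Levels of the 2 experiments are given side by side and were not tested against each other.

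After SOR, Fos was higher than in the homecage, and it was the 1 member called of the 6 tested. Fosb and Junb were higher in all 4 SOR libraries than in all 4 homecage libraries but were not called, and Fosl1, Fosl2 and Jun overlapped between the groups. Calls required an adjusted p under 0.05 (edgeR quasi-likelihood F test, two-sided, Benjamini-Hochberg over all genes tested). Over all 22305 genes tested, 0.0897% were called, each of them higher after SOR. The median log2 fold change was 0.61 over the 4 FOS genes and 0.21 over Jun and Junb, against 0.01 over all genes. In bulk tissue, more cells with a transcript and more transcript per cell cannot be told apart.

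Fos encodes the founding FOS protein and is the gene most often used as a sign of recent neuronal activity. Its level was 4.02, 2.82, 4.42 and 5.38 CPM in homecage replicates 1 to 4, from 120 to 302 counts. After SOR it was 9.01, 8.69, 9.27 and 10.7 CPM in replicates 1 to 4, from 196 to 496 counts. Every SOR library stood above every homecage library, and the SOR libraries were close together. The mean rose from 4.16 ± 1.06 to 9.40 ± 0.865 CPM (SD, n = 4 each). The log2 fold change was 1.17 (SE 0.182, 95% interval 0.78 to 1.57, adjusted p = 0.0432 by edgeR), or 2.26-fold. By p it was in place 20 of the genes tested.

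The call of Fos was close to the threshold. Leaving out any 1 library other than SOR replicate 3 ended it, with adjusted p from 0.0604 to 0.265 (edgeR), while the log2 fold change stayed between 1.03 and 1.32. Upper quartile scaling (adjusted p = 0.0545 by edgeR), a minimum of 10 counts in every library (0.0525) and a joint fit of all 19 libraries (0.16) ended it too. The call stayed without a filter on low counts (adjusted p = 0.0039 by edgeR) and with the size factors of DESeq2 (0.0426 by edgeR). It also stayed with limma-voom (adjusted p = 0.0394) and with DESeq2 (3.58e-07). With 1 library left out, the unadjusted p was at most 0.000235 (edgeR). Among tTA+ libraries alone, 3 against 2, the log2 fold change was 0.96 with an adjusted p of 0.998 (edgeR, unadjusted p = 0.0013), and with tTA as a covariate it was 1.12 (adjusted p = 0.0632).

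Fosb, whose splice variant ΔFosB is a long-lived protein that builds up with repeated stimulation, was at 1.98, 2.47, 1.67 and 1.74 CPM in homecage replicates 1 to 4. In the SOR replicates it was at 3.93, 4.04, 4.26 and 3.37 CPM. The lowest SOR library was above the highest homecage library. The means were 1.96 ± 0.363 and 3.90 ± 0.378 CPM (SD, n = 4 each), and the log2 fold change was 0.99 (SE 0.179, 95% interval 0.60 to 1.38, adjusted p = 0.0996 by edgeR). The counts do not separate ΔFosB transcripts from full-length ones.

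Junb, an early-response JUN protein that is a weaker activator than JUN, was at 31.1, 26.4, 28.2 and 34.0 CPM in homecage replicates 1 to 4. After SOR it was at 38.7, 39.9, 53.0 and 38.8 CPM. Here too the groups did not overlap, and SOR replicate 3 stood well above the other SOR libraries. The means were 29.9 ± 3.31 and 42.6 ± 6.96 CPM (SD, n = 4 each), with a log2 fold change of 0.51 (SE 0.123, 95% interval 0.24 to 0.78, adjusted p = 0.336 by edgeR). Fos, Fosb and Junb were thus 3 of 6 tested members with every SOR library above every homecage library, while 3.06% of all tested genes had this pattern. The same 3 had an unadjusted p under 0.05, which 3.67% of all genes had with a higher level after SOR. DESeq2 called all 3, with adjusted p of 6.03e-05 for Fosb and 0.0495 for Junb, and it called 122 genes in all, 0.547% of those tested. Of the 2301 annotated exon bases of Junb, 173 lie opposite exons of Prdx2. Prdx2 was at 173 ± 19.5 CPM in the homecage and 201 ± 30.2 CPM after SOR (SD, n = 4 each). Whether counting used strand is not given in the sources used here, so reads of this stretch cannot be told apart.

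Fosl1, also named FRA1, was at 4.66 to 6.67 CPM in the homecage and 6.05 to 6.69 CPM after SOR. Its log2 fold change was 0.24 (95% interval -0.07 to 0.55). The groups overlapped through homecage replicate 4. Of its 2033 annotated exon bases, 1163 lie opposite exons of Ccdc85b, which was at 66.7 ± 12.9 CPM in the homecage and 90.9 ± 54.7 CPM after SOR (SD, n = 4 each). Whether counting used strand is not given in the sources used here, so reads of these overlapping genes cannot be told apart.

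Fosl2, also named FRA2, was at 37.2, 40.5, 24.5 and 25.8 CPM in homecage replicates 1 to 4 and at 45.7, 33.6, 38.2 and 26.7 CPM in the SOR replicates. Both groups spread widely, and they overlapped. The log2 fold change was 0.17 (95% interval -0.25 to 0.59, adjusted p = 0.783 by edgeR), and 0.04 to 0.31 with 1 library left out. With tTA as a covariate it was 0.33 (unadjusted p = 0.0199, adjusted p = 0.81 by edgeR), and in tTA+ libraries alone 0.38 (adjusted p = 0.998). Among tTA+ libraries Fosl2 was at 24.5 and 25.8 CPM in the homecage and 26.7 to 38.2 CPM after SOR. Among tTA- libraries it was at 37.2 and 40.5 CPM, and at 45.7 CPM in the 1 library after SOR. Jun, the strongest activator of the JUN proteins, was at 55.4, 50.7, 41.3 and 39.6 CPM in the homecage and 51.3, 43.1, 46.7 and 35.4 CPM after SOR. Of its 3189 annotated exon bases, 232 lie opposite Junos (mean 1.56 CPM in the homecage and 1.38 CPM after SOR). The groups of Jun overlapped almost fully. Its log2 fold change of -0.08 had a 95% interval from -0.38 to 0.22 (adjusted p = 0.859 by edgeR), and its sign turned to 0.01 with tTA as a covariate. The interval of Jun lies below that of Fos, and no test of the difference between these genes was made.

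Jund, usually described as expressed broadly and steadily, had 0 counts in 18 libraries and 1 count in SOR replicate 4 of experiment 2. A count of 3 would be 0.0448 to 0.135 CPM in these libraries, which is the limit that a count of 0 allows for counting error. Of its 1668 exon bases, 877 lie opposite Gm11175, which also had 0 counts in all libraries. Why Jund is listed at 0 was not tested, and its values are not read here as a lack of Jund RNA.

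**Figure D1:**
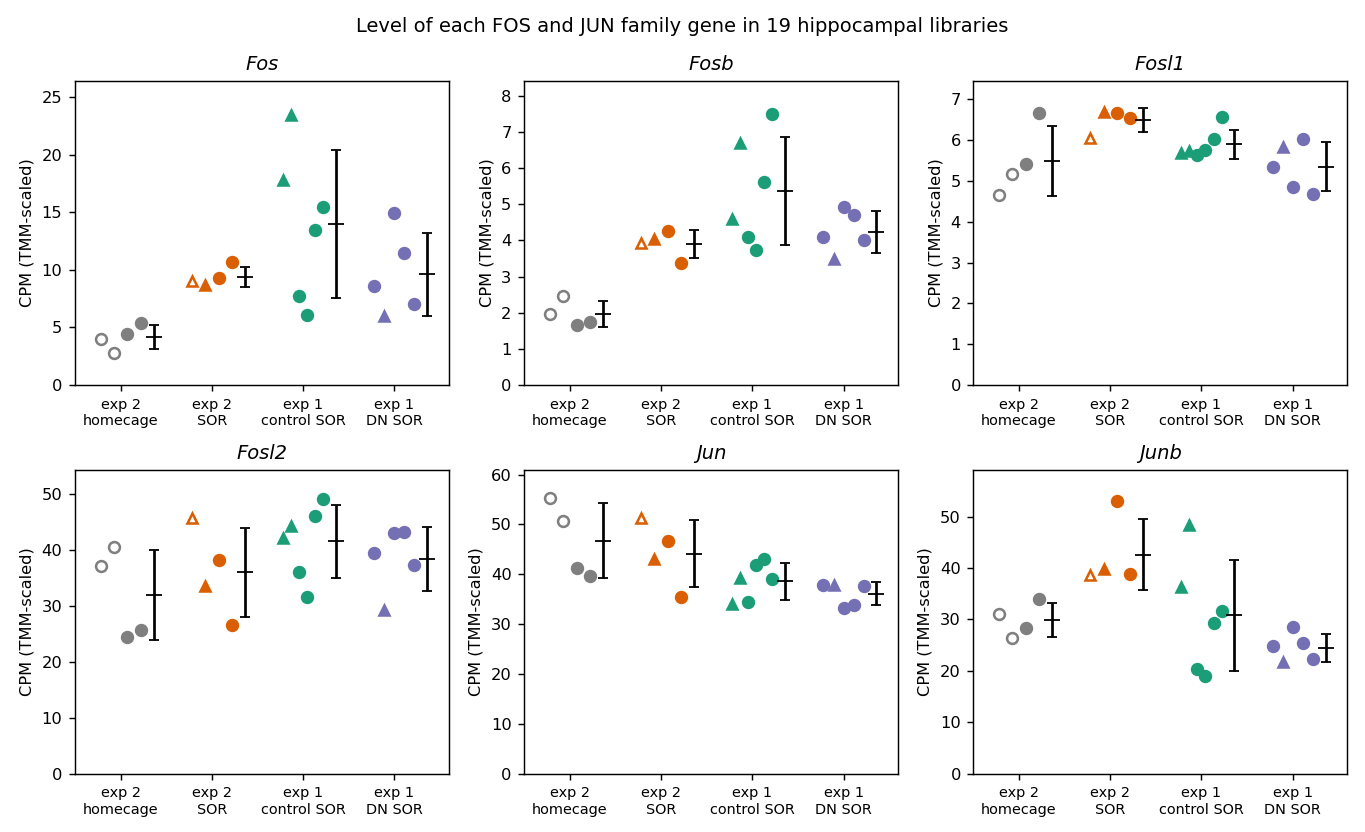
Each panel shows 1 gene, with the level in TMM-scaled CPM on the vertical axis (from 0) and the 4 groups on the horizontal axis; points are libraries, open symbols are tTA- libraries, triangles are libraries with over 200 CPM of choroid plexus markers, and black bars are mean ± SD. Fos, Fosb and Junb of all 4 SOR libraries of experiment 2 lie above the 4 homecage libraries, and the experiment 1 controls spread from 6.07 to 23.4 CPM of Fos.

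The plot of levels by group also shows which libraries were rich in choroid plexus. SOR replicates 1 and 2 held 992 and 2180 CPM of its markers, against 46.6 to 173 CPM in the homecage. All 8 markers were above 0 in log2 fold change after SOR, with a median of 1.75, and none was called. Without these 2 libraries the log2 fold changes were 1.26 for Fos, 0.95 for Fosb and 0.61 for Junb, and no member was called. Markers of other cells were compared by exposure as well, and none of them was called. All 8 oligodendrocyte markers were above 0 in log2 fold change, Mobp (0.28, SE 0.0824) and Mal (0.29, SE 0.0855) without overlap, and their sum was 6000 to 7170 CPM in the homecage and 6630 to 7730 CPM after SOR. Of 6 endothelial markers 5 were below 0, Kdr (-0.55, SE 0.109, adjusted p = 0.157 by edgeR) and Tek (-0.23, SE 0.0851) without overlap, with sums of 130 to 150 CPM and 115 to 144 CPM. Of the 6 astrocyte and the 6 microglia markers, 3 each were above 0 and 3 below, with medians of 0.05 and 0.03, and 1 of each, Aldh1l1 (0.41, SE 0.147) and Tmem119 (0.32, SE 0.105), was higher without overlap. Of 5 blood markers 4 were above 0 and all overlapped, with sums of 62.3 to 101 CPM in the homecage and 73.4 to 106 CPM after SOR. No oligodendrocyte, endothelial, astrocyte, microglia or blood marker was at 0 in any library, and the part of these cells and of choroid plexus in the values of Fos, Fosb and Junb was not tested.

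The tTA genotype was compared within experiment 2, with exposure in the model (5 tTA+ against 3 tTA- libraries). No member was called, while 0.358% of the 22904 genes tested were. Fosl2 and Jun had the lowest p among the members, and both were lower in tTA+ libraries. Fosl2 was at 24.5, 25.8, 33.6, 38.2 and 26.7 CPM in the tTA+ libraries and at 37.2, 40.5 and 45.7 CPM in the tTA- libraries. All but 1 of the tTA+ libraries were below every tTA- library. The means were 29.8 ± 5.89 (SD, n = 5) and 41.2 ± 4.29 CPM (SD, n = 3). The log2 fold change was -0.56 (SE 0.125, 95% interval -0.84 to -0.29, adjusted p = 0.143 by edgeR).

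Jun was at 35.4 to 46.7 CPM in tTA+ libraries and at 50.7 to 55.4 CPM in tTA- libraries. These groups did not overlap, a pattern found in this direction in 3.4% of all tested genes. An unadjusted p under 0.05 with a lower level in tTA+ libraries, as Fosl2 and Jun had, was found in 3.44% of genes. The log2 fold change of Jun was -0.35 (SE 0.109, 95% interval -0.59 to -0.11, adjusted p = 0.490 by edgeR). Fos, Fosb, Fosl1 and Junb overlapped between the genotypes, with log2 fold changes of 0.33, -0.22, 0.23 and 0.15. All libraries of experiment 1 were tTA+, and there Jun was at 33.3 to 43.0 CPM and Fosl2 at 29.3 to 49.1 CPM. The tTA- libraries made up 2 of 4 homecage but 1 of 4 SOR libraries, so genotype was spread unevenly over exposure.

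The call depended on settings for these 2 genes. Fosl2 was called without a filter on low counts (adjusted p = 0.00132 by edgeR), with DESeq2 (0.0111, where 1.1% of all genes were called), with all 19 libraries in 1 edgeR fit (0.0494), and without SOR replicate 3 (0.00463). In that last fit Jun was called as well (adjusted p = 0.0460 by edgeR). Over all genes, 290 of 22809 were called without SOR replicate 3 and 388 of 24161 in the fit of all 19 libraries. Without a filter it was 265 of 36930, against 82 of 22904 in the main fit. Of 17 alternatives, Fosl2 was called in 4 and Jun in 1. Whether SOR acted differently by genotype could not be judged, since only 1 tTA- library was taken after SOR. The fitted interaction for Fos was -0.46 (SE 0.338 by edgeR), which assumes that this library varies like the others.

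Between DN and control libraries after SOR, the levels of all 6 tested members overlapped and none was called. Of the 22391 genes tested, 0.00893% were called and 0.299% did not overlap. The point estimates were below 0 for each of the 6, from -0.10 for Jun to -0.53 for Fos, while 50% of all genes were above 0. Their median was -0.24 over the 4 FOS genes and -0.21 over Jun and Junb, against 0.00 over all genes. An adjusted p of 0.999 (edgeR) held for each member, and no member had an unadjusted p under 0.05, which 3.83% of all genes had.

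The Fos level of DN replicates 1 to 5 was 8.63, 5.97, 15.0, 11.4 and 7.03 CPM. That of controls 1 to 6 was 17.8, 23.4, 7.70, 6.07, 13.5 and 15.4 CPM. The 2 highest values were those of controls 1 and 2, and controls 3 and 4 were as low as the lower DN libraries. The means were 9.61 ± 3.63 (SD, n = 5) and 14.0 ± 6.44 CPM (SD, n = 6), and the log2 fold change was -0.53 (SE 0.388, 95% interval -1.41 to 0.34). The interval spans a fall larger than the rise after SOR as well as no change, so the experiment did not settle the direction.

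The libraries rich in choroid plexus lay at both ends of the Fos values. Controls 1 and 2, with the most Fos, held 4120 and 1350 CPM of them, and DN replicate 2, with the least Fos, held 1640 CPM. The other 8 libraries held 21.5 to 172 CPM and ranged from 6.07 to 15.4 CPM of Fos. Without these 3 libraries the log2 fold change of Fos was -0.01, and that of Junb turned from -0.33 to 0.01. The part of choroid plexus in the difference was not tested beyond this.

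For Fosb, DN replicates 1 to 5 had 4.08, 3.47, 4.94, 4.70 and 4.02 CPM, and controls 1 to 6 had 4.60, 6.69, 4.10, 3.75, 5.62 and 7.49 CPM. The 3 highest values were in controls, and the rest intermingled. Its log2 fold change of -0.34 (SE 0.166, 95% interval -0.69 to 0.02, unadjusted p = 0.0598 by edgeR) was the lowest p among the members. For Junb, the DN libraries had 24.7, 21.8, 28.5, 25.4 and 22.2 CPM, and the control libraries 36.2, 48.3, 20.4, 19.02, 29.2 and 31.7 CPM. The DN libraries thus lay inside the range of the controls. The log2 fold change of Junb was -0.33 (95% interval -0.87 to 0.21).

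Fosl2 was at 29.3 to 43.3 CPM in the DN libraries and 31.7 to 49.1 CPM in the controls, with a log2 fold change of -0.11 (95% interval -0.41 to 0.19). Fosl1 was at 4.68 to 6.03 and 5.64 to 6.57 CPM (-0.14, 95% interval -0.33 to 0.05). Jun was at 33.3 to 37.9 CPM and 34.1 to 43.0 CPM (-0.10, 95% interval -0.23 to 0.03). For these 3 genes the intervals were narrow, and a change beyond 0.41 on the log2 scale in either direction lay outside them.

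**Figure D2:**
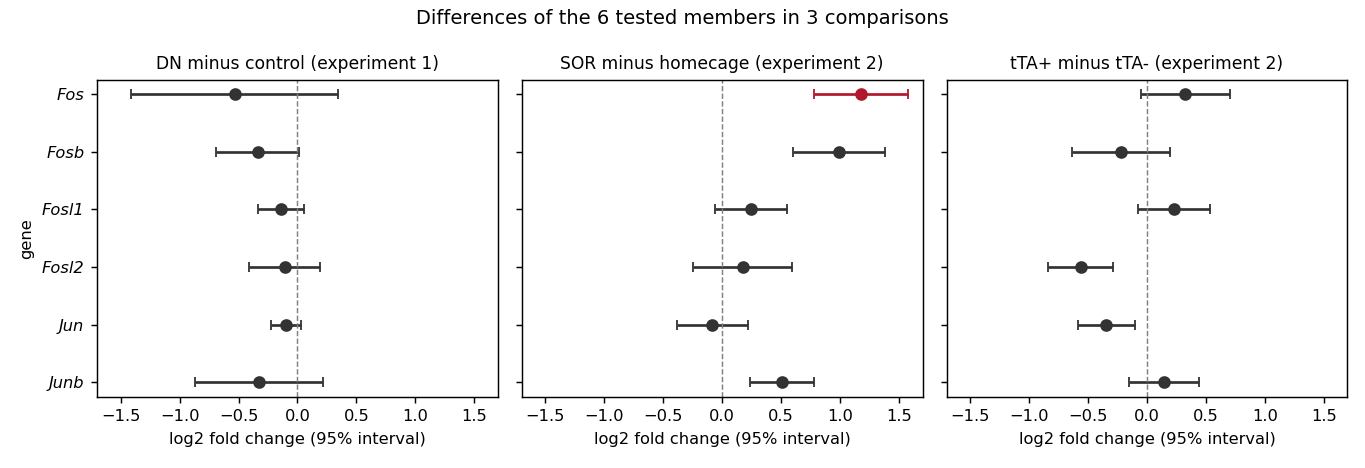
Points are log2 fold changes of the 6 tested members and bars their 95% intervals, for DN minus control in experiment 1, SOR minus homecage in experiment 2, and tTA+ minus tTA- in experiment 2; the dashed line marks no difference and red marks an adjusted p under 0.05. Fos after SOR (1.17) is the 1 called value, and the intervals of Fosb and Junb after SOR and of Fosl2 and Jun by tTA also leave out 0.

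Spread between libraries differed by member and by group. The coefficient of variation (SD as a percentage of the mean) of Fos was 46.1% in the experiment 1 controls, larger than that of 97.3% of the tested genes, whose median was 10.3%. Its highest control library had 3.85 times the level of the lowest. Junb followed with 35.2% and Fosb with 27.8% in the same 6 libraries. Jun, at 9.65%, and Fosl1, at 6.00%, varied no more than the median gene. In the SOR group of experiment 2, Fos varied by 9.20%, less than the median gene there (18.9%). Both groups were controls after SOR, and no test compared their spread.

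Across the 11 libraries of experiment 1, the levels of Fos, Fosb, Fosl2 and Junb were correlated, and no pair with Jun or Fosl1 passed the test. Of 15 pairs of the 6 members, all 6 pairs among these 4 genes had an adjusted p under 0.05 in a permutation test of Pearson's r of log2 CPM (100000 permutations, two-sided, Benjamini-Hochberg over the 15 pairs), and the other 9 did not. Spearman's rho gave the same number of pairs. DN and control libraries were pooled and permuted together, so an offset between these groups enters the values.

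Fos and Junb were the closest pair, with r = 0.947 (permutation p = 1e-05, the smallest that these permutations can give, adjusted p = 0.00015) and rho = 0.945 (permutation p = 0.00012, adjusted 0.0009). Without the 2 libraries farthest from the median of Fos, r was 0.960, and in the 8 libraries below 200 CPM of choroid plexus markers it was 0.954. In the 6 controls alone r was 0.986 (exact permutation p = 0.00139, the smallest possible, adjusted p = 0.0208) and rho was 1. This was the 1 pair with an adjusted p under 0.05 in the controls alone.

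Fos and Fosb had r = 0.837 (permutation p = 0.0009, adjusted 0.00337) and rho = 0.873 (permutation p = 0.00111, adjusted 0.00555), and r was 0.731 without the 2 farthest libraries. For Fos and Fosl2, r was 0.844 (permutation p = 0.00083, adjusted 0.00337), rho was 0.818 (permutation p = 0.00315, adjusted 0.00837) and r without the 2 farthest was 0.865. The pair of Fosb and Fosl2 had r = 0.870 (permutation p = 0.00079, adjusted 0.00337), rho = 0.955 (permutation p = 3e-05, adjusted 0.00045) and 0.935 without the 2 farthest. Junb followed Fosb with r = 0.778 (permutation p = 0.00466, adjusted 0.014), rho = 0.818 (permutation p = 0.00335, adjusted 0.00837) and 0.713 without the 2 farthest, and followed Fosl2 with 0.707 (permutation p = 0.0142, adjusted 0.0355), rho = 0.827 (permutation p = 0.00288, adjusted 0.00837) and 0.642. Within the 8 libraries poor in choroid plexus these 5 pairs had r between 0.862 and 0.971. In the 6 controls alone r was 0.774 for Fos with Fosb, 0.834 for Fos with Fosl2 and 0.907 for Fosb with Fosl2. For Junb it was 0.733 with Fosb and 0.746 with Fosl2. None of these 5 passed there (exact permutation test, adjusted p from 0.0729 to 0.232), and rho ran from 0.543 to 0.943. Fosl2 thus varied with Fos between libraries in experiment 1. In experiment 2 it overlapped between SOR and homecage, but not among libraries of the same tTA genotype. Its log2 fold change after SOR with tTA as a covariate was 0.33 (adjusted p = 0.81 by edgeR).

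Jun had r = -0.133 with Fos (permutation p = 0.692, adjusted 0.798), rho = -0.0545 (permutation p = 0.881, adjusted 0.944) and -0.288 without the 2 farthest libraries. With Junb, r was -0.00508 (permutation p = 0.989, adjusted 0.989), rho was 0.0273 (permutation p = 0.947, adjusted 0.947) and r without the 2 farthest was -0.0368. The library with most Fos, control 2, was at 39.3 CPM of Jun, and the control with least Fos, control 4, was at 41.9 CPM. Fosl1 had r from 0.208 with Junb to 0.441 with Fosb among these 4 genes over the 11 libraries (permutation p = 0.539 and 0.17, adjusted 0.728 and 0.364), with rho of 0.209 and 0.355 (permutation p = 0.538 and 0.284, adjusted 0.806 and 0.473). Without the 2 farthest libraries these r were 0.172 and 0.0867. In the 6 controls alone its r was 0.715 with Fosb (exact permutation p = 0.0944, adjusted 0.232) and 0.640 with Fosl2 (exact permutation p = 0.183, adjusted 0.344). These are close to the 0.733 of Fosb with Junb there, and whether Fosl1 differs from the other genes in this was not tested. All values come from the same libraries and share their depth and scaling.

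**Figure D3:**
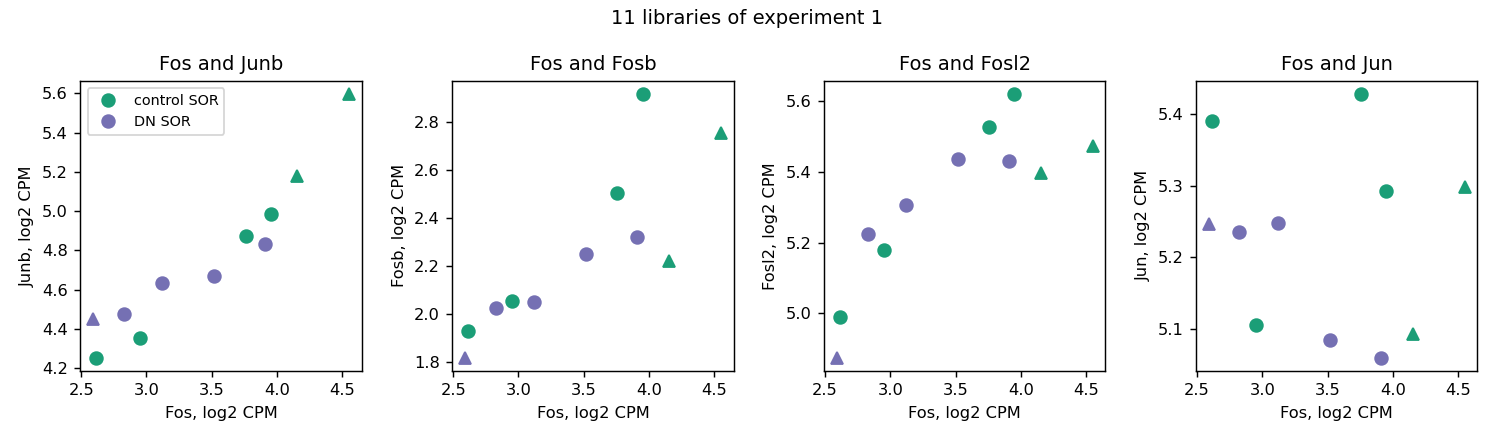
Each panel sets the log2 CPM of Fos (horizontal axis) against that of Junb, Fosb, Fosl2 or Jun (vertical axis) in the 11 libraries of experiment 1; green marks controls, purple DN libraries, and triangles libraries with over 200 CPM of choroid plexus markers. Junb, Fosb and Fosl2 climb with Fos (r = 0.947, 0.837 and 0.844), and Jun does not (r = -0.133).

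Outside the family, the genes whose pattern was most like that of Fos were ranked by the smaller of their correlations with Fos over the 11 libraries of experiment 1 and over the 8 of experiment 2, both exposures included, among 16348 genes. Arc, an activity-induced protein of synapses, came first with r = 0.943 and 0.928. Dusp6, a phosphatase that inactivates ERK kinases, had 0.903 and 0.955, and Gadd45b, a stress- and activity-induced gene, had 0.888 and 0.896. Mcl1 (a survival protein of the BCL2 family), Bfar, Ubfd1, Stip1 (a cochaperone of heat shock proteins), Atg5 (an autophagy protein), Ppp2r1b (a subunit of protein phosphatase 2A) and Dnajb1 (another cochaperone) completed the first 10, with the smaller r from 0.844 to 0.877. These genes were chosen for this likeness, so no test is given for it. After SOR their log2 fold changes ran from 0.13 for Bfar to 0.79 for Arc, a direction that the choice by likeness to Fos largely fixes.

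Levels between genes were compared per length, as CPM per kilobase (kb) of annotated exon. In all 19 libraries Jun and Junb were each above every FOS gene, and Fosb was the lowest of the 6 genes. Jun was at 11.3, 12.1, 14.7 and 13.8 CPM per kb on average in the DN, experiment 1 control, homecage and SOR groups, and Junb at 10.7, 13.4, 13.0 and 18.5. Junb was above Jun in 10 of 19 libraries: in 4 of 4 SOR libraries of experiment 2, without overlap, and in 1 of 4 homecage, 2 of 5 DN and 3 of 6 control libraries, where the ranges overlapped. With the longest transcript as the length (1809 in place of 2301 bases for Junb), Junb was above Jun in 16 of 19 libraries, while Jun and Junb stayed above every FOS gene and Fosb stayed lowest in all 19. Fosb averaged 0.315 CPM per kb in the homecage and 0.625 after SOR, and 0.679 and 0.861 in the DN and control libraries of experiment 1. The library median of the ratio was 3.66 for Jun to Fos and 5.78 for Fos to Fosb.

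The middle of the order changed with the library. In the homecage Fos, at 1.77 ± 0.450 CPM per kb (SD, n = 4), was below Fosl1, at 2.70 ± 0.420, and Fosl2, at 3.31 ± 0.832. After SOR in experiment 2, Fos was at 4.00 ± 0.368, Fosl2 at 3.72 ± 0.826 and Fosl1 at 3.19 ± 0.147 CPM per kb (SD, n = 4 each). Fosl2 was above Fos in 4 of 4 homecage libraries, without overlap, and in 2 of 4 SOR libraries of experiment 2, where the ranges overlapped. In experiment 1 it was above Fos in 3 of 5 DN and 2 of 6 control libraries, and the ranges overlapped in both groups. The place of Fosl1 carries the limit given above, that its reads cannot be told apart from those of Ccdc85b. The order of Fosl2 and Fos depends on the length used. With the longest annotated transcript in place of all exons (for Fosl2 6537 in place of 9680 bases, for Fos 2108 in place of 2352), Fosl2 averaged 5.52 and Fos 4.46 CPM per kb after SOR in experiment 2, and Fosl2 was above Fos in 15 of 19 libraries. Fos ranged from 2.58 to 9.95 CPM per kb in the controls of experiment 1.

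As a share of the summed levels per length of the whole family, the FOS genes made up 22.6% ± 1.30 in the homecage and 26.4% ± 1.85 after SOR (SD, n = 4 each). Single libraries ranged from 20.9% to 23.9% and from 23.9% to 28.3%. The ratio of Fos to Jun, per length, was 0.0755 to 0.184 in the homecage and 0.238 to 0.408 after SOR. JUN transcripts other than Jund thus outweighed FOS transcripts in every library. In experiment 1 the FOS share was 33.9% ± 3.77 in the DN libraries (SD, n = 5) and 35.2% ± 2.70 in the controls (SD, n = 6). Jund is missing from the JUN side of these shares, and the FOS side includes Fosl1, whose reads cannot be told apart from those of Ccdc85b. With the length of the longest transcript they were 24.9% ± 1.26 in the homecage and 28.1% ± 1.87 after SOR (SD, n = 4 each), and the libraries overlapped, from 23.5% to 26.5% and from 25.4% to 29.4%.

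**Figure D4:**
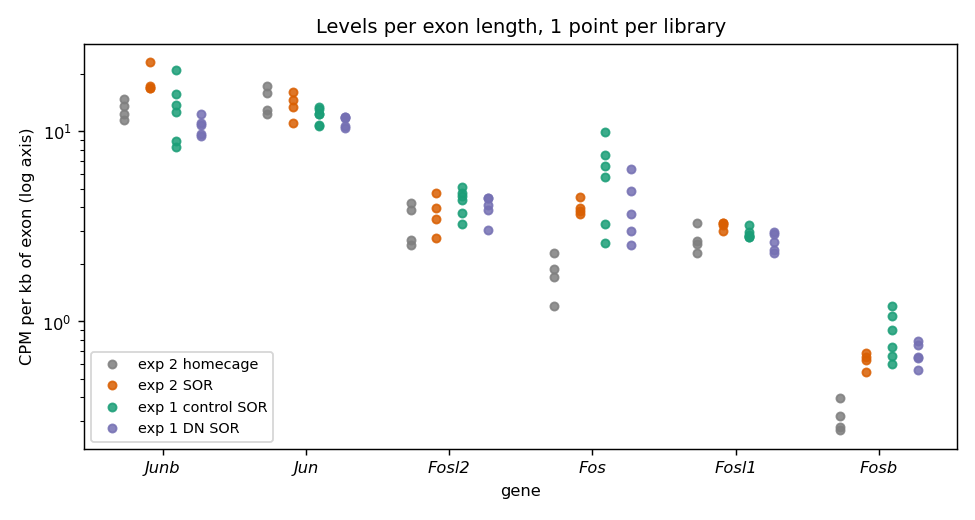
Points are libraries, with the level in CPM per kb of exon on a log axis and the 6 measured genes on the horizontal axis, coloured by group. Junb and Jun lie above the FOS genes in all 19 libraries and Fosb below the rest, while Fos spans from 1.20 CPM per kb in the homecage to 9.95 in the controls of experiment 1.

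The other genes of the AP-1 pathway were read from 4 lists. The first held 14 further leucine zipper genes that pair with FOS or JUN proteins or resemble them (the ATF, BATF, JDP and MAF groups), of which 12 were tested. None was called in any comparison. After SOR their median log2 fold change was 0.20, against 0.01 over all genes, and 9 of 12 were above 0, as were 51.5% of all genes. Maff, a small MAF protein without an activation domain, had the lowest p: it was at 0.491 to 0.804 CPM in the homecage and 1.05 to 1.56 CPM after SOR, with no overlap and a log2 fold change of 0.82 (SE 0.235, adjusted p = 0.517 by edgeR). Jdp2, a repressor that pairs with JUN proteins, had the lowest p by tTA genotype, with a log2 fold change of 0.66 (SE 0.144, adjusted p = 0.137 by edgeR). In the DN comparison the median was -0.08, and the lowest p was that of Mafg (log2 fold change -0.08, SE 0.0386, unadjusted p = 0.0546 by edgeR).

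The second list held 20 kinases and factors that act upstream (ERK, JNK and p38 kinases, their activators, RSK and MSK kinases, CREB1, SRF, ELK factors and MEF2C), all tested and none called. Their medians were -0.04 after SOR, 0.02 by tTA and -0.02 by DN. Srf, the factor that binds CArG boxes, had the lowest p after SOR, at 55.9 ± 4.21 CPM in the homecage and 68.0 ± 11 CPM after SOR (SD, n = 4 each, log2 fold change 0.28, SE 0.115, adjusted p = 0.629 by edgeR). Rps6ka5, which encodes the kinase MSK1, had it by tTA (0.35, SE 0.108, adjusted p = 0.483 by edgeR), and Creb1 by DN (-0.06, SE 0.034, unadjusted p = 0.0786 by edgeR). The groups overlapped for each of these 3 genes.

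The third list held 8 genes that control the decay of FOS and JUN messages or proteins, such as the RNA-binding proteins of the Zfp36 group and the ubiquitin ligases Fbxw7, Itch and Cop1. All were tested and none was called, with medians of -0.04 after SOR, 0.00 by tTA and -0.02 by DN. The lowest p were those of Zfp36l1 after SOR (log2 fold change -0.19, unadjusted p = 0.322 by edgeR), Fbxw7 by tTA (-0.20, unadjusted p = 0.0386) and Zfp36 by DN (-0.25, unadjusted p = 0.0641).

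The fourth list held 16 genes described as AP-1 targets, 15 of them tested. After SOR none was called and the median was 0.09. Nptx2, a secreted protein that gathers AMPA receptors at synapses, had the lowest p: it was at 21.9 to 26.1 CPM in the homecage and 29.2 to 51.6 CPM after SOR, without overlap (log2 fold change 0.64, SE 0.157, adjusted p = 0.336 by edgeR). By tTA genotype 2 of the 15 were called, both lower in tTA+ libraries, against 0.249% of all genes called lower. Scg2, a granin of secretory vesicles, had a log2 fold change of -0.61 (SE 0.101, adjusted p = 0.0341 by edgeR). Penk, the precursor of enkephalins, fell by 1.18 on the log2 scale (SE 0.201, adjusted p = 0.0414 by edgeR). The list median by tTA was -0.06. Without overlap and not called, Pdyn (-1.27, adjusted p = 0.0833 by edgeR), Bdnf (-0.38) and Ccnd1 (-0.30) were also lower and Inhba (0.69) was higher; these 4 are named after their values were seen. Of the 8 hippocampal neuron markers none was called by tTA, and 3 were lower with an unadjusted p under 0.05 (edgeR). Prox1 (granule cells) had -0.67 (SE 0.185, adjusted p = 0.350 by edgeR). Grp had -0.95 (SE 0.332, adjusted p = 0.611) and Fibcd1 (CA1) -0.28 (SE 0.11, adjusted p = 0.725). Prox1 and Fibcd1 did not overlap between genotypes. The other 5 of the 8 had log2 fold changes from -0.04 to 0.04, and the part of these cells in the values of the targets was not tested. In the DN comparison none of the 15 targets was called, their median was -0.07, and the matrix protease gene Mmp9 had the lowest p (log2 fold change -0.40, SE 0.186, unadjusted p = 0.0443 by edgeR).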

How the data were processed

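The authors deposited whole-number counts per gene for 19 libraries in 1 table of 51789 rows. Per the submitters' processing notes, the tools were STAR, SAMtools 1.6 and featureCounts 1.4.4 and the build was mm10; the gene annotation and the strand setting are not given in the sources used here. Trizol extraction and removal of ribosomal RNA with Ribo-Zero are given in the labels' protocols. Columns were tied to samples by the sample names in the descriptions, and groups and replicate numbers came from the titles. Symbols, positions and exon lengths came from GENCODE M21 (GRCm38), which held 51596 of the identifiers, and all 7 members. The identifier of Fosl1 had another version there. Promoter windows came from RefSeq (GRCm38.p6), and 6 of the 7 members had one.

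Each experiment was fitted alone over its whole table with edgeR 4.0.16 in R 4.3.3 (TMM, filterByExpr, robust glmQLFit, glmQLFTest, two-sided, Benjamini-Hochberg over all genes tested). SOR against homecage and DN against control had no covariate, and tTA+ against tTA- had exposure. Standard errors were derived from the F statistics, and the 95% intervals use the total degrees of freedom of the quasi-likelihood fit, prior plus residual. Log2 CPM used a prior count of 2. Permutation tests used numpy 2.4.6. Pairs of members were adjusted over 15, not 21 as planned, since Jund could not be ranked. The procedure was tested on simulated counts.

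Named genes were the members, the called genes of each list or, with none called, the gene with the lowest p, and the 10 genes most like Fos. Pdyn, Bdnf, Ccnd1 and Inhba among the targets, and the cell type markers given by name, fall outside this rule and were chosen after their values were seen. The members and lists were chosen with earlier results of these data known. Alternatives were other scalings (size factors as in DESeq2, upper quartile), filters (none, 10 counts in every library), DESeq2 1.42.0, limma-voom 3.58.1, a joint fit of all 19 libraries, a block for the replicate number, tTA terms, and each library left out. Leaving out choroid-rich libraries, correlating CPM without TMM and dividing by the longest transcript were chosen after seeing the data. Libraries of the same group differed beyond sampling noise (chi-square per degree of freedom from 5.07 to 83.6), so each counted as 1 sample. Limits from counts cover counting error only, as reads that carry no molecular identifier may repeat a molecule. The labels give the libraries as separate samples with their own replicate numbers and no more, so p-values measure the spread between these samples.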

Additional observations from a re-analysis of the deposited data

Results flagged for a closer look

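Junb in replicate 3 of the SOR group of experiment 2 was at 53.0 CPM, apart from the other 3 libraries of its group at 38.7 to 39.9 CPM. Its gap to the nearest of them was 0.92 of the range of the group, above Dixon's 95% limit for 4 samples. Of the 24 combinations of a member and a group tested this way, 1 stood out, and chance gives about 1 in 20. This library was also the smallest, with 22258159 counts, and Junb had 1121 counts in it.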

How the results depend on the processing

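In the DN comparison no member was called under any of the 20 alternatives. Without the libraries above 200 CPM of choroid plexus markers, Fosl2 turned to 0.0045 and Junb to 0.012 on the log2 scale. With 1 library left out, the log2 fold changes by DN ran from -0.74 to -0.32 for Fos, -0.42 to -0.22 for Fosb and -0.43 to -0.15 for Junb. They ran from -0.19 to -0.09 for Fosl1, -0.18 to -0.03 for Fosl2 and -0.13 to -0.06 for Jun. In the SOR comparison 1 member was called. The number was 0 with upper quartile scaling, with at least 10 counts in every library, with the replicate number as a block (Fos 1.20, adjusted p = 0.0523 by edgeR, and 9 genes called in all in place of 20), with tTA as a covariate, with tTA+ libraries alone and without the choroid-rich libraries, and 3 with DESeq2. It ranged from 0 to 1 with 1 library left out. In all 19 alternatives Fos, Fosb and Junb were higher after SOR with an unadjusted p under 0.05, and Fos was called in 5 of them. With all 19 libraries in 1 edgeR fit, Fosb was called (adjusted p = 0.0167) and Fos was not (0.16). Jun, at -0.164 to 0.010 with 1 library left out, turned from -0.08 to 0.0017 without homecage replicate 1, 0.010 without SOR replicate 4, 0.0099 with tTA as a covariate and 0.042 in tTA+ libraries alone. In the tTA comparison 0 members were called, but 1 without a filter on low counts, with DESeq2 and with all 19 libraries, and 0 to 2 with 1 library left out. Fosb turned from -0.22 to 0.085 without the exposure term. With 1 library left out, the log2 fold changes by tTA ran from 0.18 to 0.53 for Fos, -0.39 to -0.10 for Fosb and 0.14 to 0.30 for Fosl1. They ran from 0.08 to 0.21 for Junb, -0.63 to -0.52 for Fosl2 and -0.39 to -0.31 for Jun. Over all genes, the count of calls in the SOR comparison went from 20 to 36 without a filter, 122 with DESeq2, 145 with all 19 libraries, 11 with tTA as a covariate, 0 in tTA+ libraries alone, and 1 to 50 with 1 library left out. In the tTA comparison it went from 82 to 265, 253 and 388 with no filter, DESeq2 and all 19 libraries, to 15 without choroid-rich libraries, and from 10 to 290 with 1 library left out. The causes were not tested. Same-numbered libraries of the 2 groups correlated from -0.05 to 0.194 in the DN comparison and from 0.0454 to 0.391 in the SOR comparison, and not every library correlated best with its own number, so the numbers were not taken to pair them; with the block over the numbers held by both DN and control groups, 0 members were called. Levels per length without TMM moved by less than the spread between replicates, and 6 pairs of members were called without TMM as with it. With 120 to 302 counts in homecage libraries, Fos has a larger counting error than Jun or Junb, whose libraries had at least 672 counts.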
